A study of Mus musculus with 10 samples.

Results

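Immunoglobulin variable (V) segments are the germline gene pieces that encode most of the antigen-binding domain of an antibody chain. The 156 segments described here are the genes with a symbol starting Ighv, Igkv or Iglv that reached a count of at least 10 in at least 5 of the 10 libraries, among 38887 genes in the deposited table (0.401%). They were chosen by their level in these libraries, so that their being detected is not a result. The set holds 81 heavy-chain (Ighv), 72 kappa (Igkv) and 3 lambda (Iglv) segments, out of 214 V segments listed in the table. The other 58 did not meet the rule. The RNA came from bone marrow hematopoietic progenitor cells of mice bearing Lewis lung carcinoma, a transplantable mouse lung tumour. A group of 5 libraries, called CK2i, came from mice treated over 2 weeks with the CK2 kinase inhibitor BMS-595 at 60 mg/kg. The other 5 libraries came from mice given vehicle, which the sample titles call untreated. All 10 libraries share the tumour, the tissue and the cell type, and the sources used here do not give the strain, sex or age of the mice or how the progenitors were isolated. The labels number the replicates but do not say whether each is a separate mouse, so the p-values below measure the spread between these libraries, which may in part be technical.

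In B-lineage cells, 1 V segment is joined to D and J segments at the heavy-chain locus, and another to a J segment at a kappa or lambda locus. The joined gene is transcribed at high rate in plasma cells, the antibody-secreting cells that reside in bone marrow, and at lower rate in other B cells. The segment used and the junction differ from clone to clone, so RNA of V segments carries the mark of the clones present, while RNA of the constant segments does not. Progenitors that have not entered the B lineage hold the segments unjoined. In bulk RNA, fewer cells of a type and less RNA per cell cannot be told apart.

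The members lie at 3 loci of GRCm38, the assembly also named mm10. The Ighv segments of the table lie on chromosome 12 between 113574245 and 116000461. The Igkv segments lie on chromosome 6 between 67555497 and 70704177, and the Iglv segments on chromosome 16 between 19085017 and 19260859. The GENCODE M21 annotation lists each member as a functional V gene and none as a pseudogene. The members fall into 13 Ighv, 17 Igkv and 3 Iglv families, a family being the number before the hyphen in the symbol and grouping segments of similar sequence. The lambda symbols have no hyphen, so each lambda segment counts as a family of its own, although Iglv1 and Iglv2 are 96.9% identical. Of the 156, 123 reached the count minimum in all 10 libraries. The members just inside the rule were Ighv2-4, Ighv9-1 and Ighv7-4, with median counts of 7.5 to 10.5, and just outside it were Ighv1-37, Igkv1-99 and Igkv12-38, with medians of 5.5 to 8. The table also lists 29 D and J segments, each at 0 in all libraries.

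The libraries held 34127674 to 40811539 counts in CK2i and 37569160 to 43636152 in vehicle. V segments took 0.0659% to 0.143% of the counts of a CK2i library and 0.102% to 0.139% of a vehicle library. The progenitor genes Kit and Cd34 stood at 225 ± 19.2 and 197 ± 14.8 CPM in CK2i and at 269 ± 16.0 and 179 ± 29.4 CPM in vehicle (SD, n = 5 each), where CPM is the count scaled by library total and TMM factor. Jchain, the joining chain made by antibody-secreting cells, stood at 247 to 419 CPM in CK2i and 493 to 671 CPM in vehicle. CK2i libraries 2 and 5 stood apart over all genes, at -43.3 and -43.7 on the first principal component, against -12.5 to 4.10 in the other CK2i libraries and 9.37 to 29.6 in vehicle. In V segments it was CK2i 3 that stood apart, with the highest summed heavy and kappa levels of the 10 libraries. Results that change without these libraries are given beside them.

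Single segments varied far more between libraries of 1 group than other genes did. The median over members of the within-group SD of log2 CPM was 0.69 in CK2i and 0.67 in vehicle, against 0.17 and 0.14 for 9327 other genes in the same range of expression. More than 50% of the summed CPM of a segment came from a single library for 7 of 156 members (4.49%). Over all 14346 genes tested it was 18 (0.125%), a set that includes these 7 and is not matched by level. Of the 7, Ighv9-4 stood at 20.2 CPM in vehicle 3 and at 0.581 to 2.39 CPM in the other 9 libraries. Ighv12-3, known in mouse from B-1 cells that bind phosphatidylcholine, had 20.5, 0.370, 5.26, 0.185 and 0.177 CPM in CK2i 1 to 5 and 5.99, 0.213, 0.947, 1.68 and 0.257 CPM in vehicle 1 to 5. Both groups held libraries with high and with low Ighv12-3. The remaining 5 were Igkv12-89 (highest in CK2i 3), Igkv4-58 (CK2i 2), Igkv8-24 and Igkv5-43 (vehicle 4) and Igkv9-124 (vehicle 2). Mean CPM of the members ran from 0.240 to 49.4 with a median of 3.25, and the 10 highest members held 34.0% of the V counts.

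**Figure D1:**
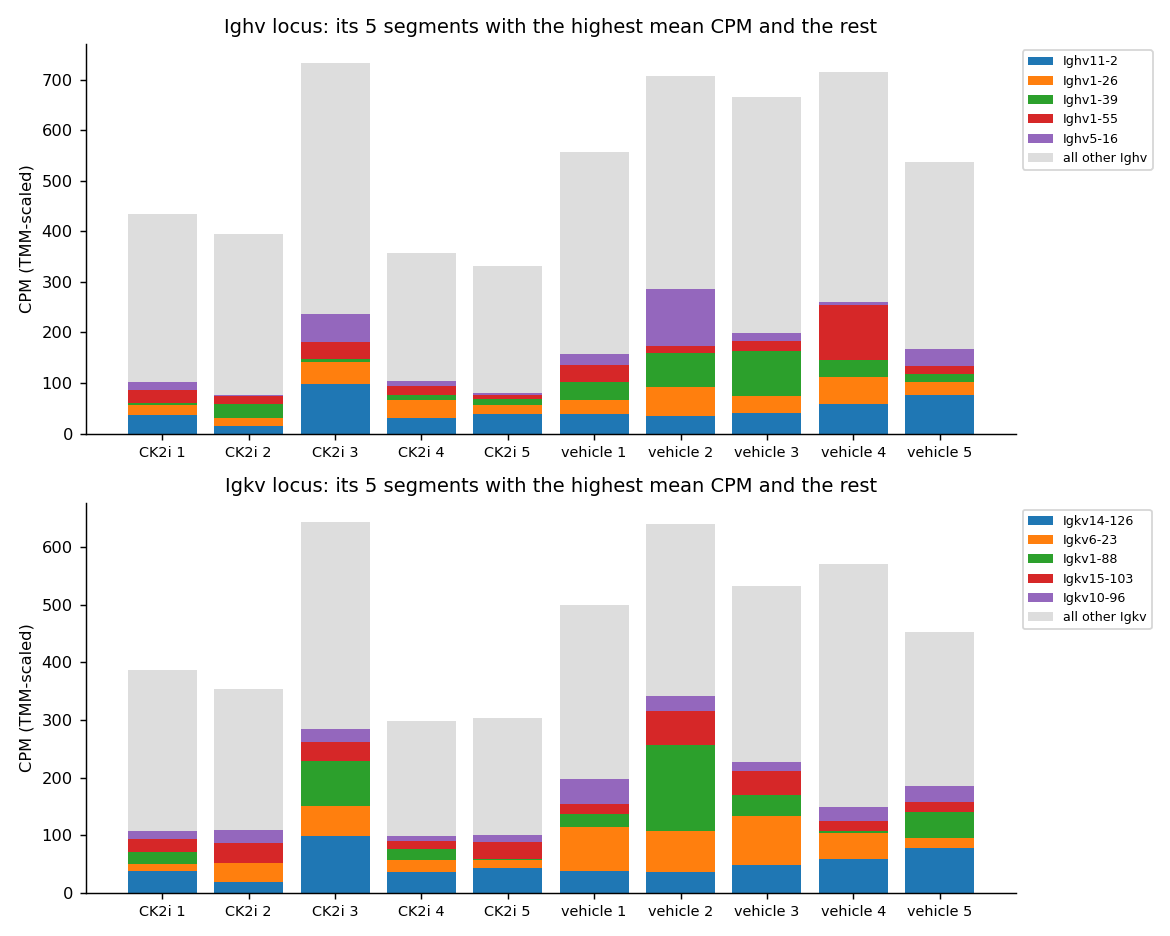
Stacked bars give the CPM (TMM-scaled) of each library, CK2i 1 to 5 on the left and vehicle 1 to 5 on the right, for the heavy locus (top panel) and the kappa locus (bottom panel), with the 5 segments of highest mean CPM in colour and all others in grey. The coloured parts differ in size from library to library, as with Ighv5-16 (2.39 CPM in CK2i 2, 114 CPM in vehicle 2), and CK2i 3 has the tallest bar in both panels.

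The segment with the highest count differed between libraries. Over the 10 libraries, 6 different Ighv and 6 different Igkv segments led their locus, and Iglv1 led the lambda locus in all 10. Ighv11-2 led the heavy locus in CK2i 1, 3 and 5 and in vehicle 1 and 5, with 6.86% to 14.2% of its counts. The other leaders were Ighv9-3 in CK2i 2, Ighv1-26 in CK2i 4, Ighv5-16 in vehicle 2 (16.2%), Ighv1-39 in vehicle 3 (13.5%) and Ighv1-55 in vehicle 4 (15.4%). Igkv14-126 led the kappa locus in CK2i 3, 4 and 5 and in vehicle 5. Igkv6-23 led it in vehicle 1 and 3, Igkv1-88 in vehicle 2 with 23.4% of the kappa counts, Igkv5-43 in vehicle 4, Igkv16-104 in CK2i 1 and Igkv15-103 in CK2i 2.

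The leading segments are shown because they form the heavy and kappa pairs described next. Each line gives the last 300 bases of the germline coding sequence (GENCODE M21 transcript on GRCm38), read 5′ to 3′ on the coding strand. Capitals run from the last in-frame cysteine codon to the end of the segment, the stretch where the join to the D or J segment begins. Ighv11-2 lies on the minus strand of chromosome 12 from 114048241 to 114048812, and Ighv5-16 on the same strand from 113838526 to 113839010. Igkv14-126 lies on the plus strand of chromosome 6 from 67896172 to 67896642, and Igkv1-88 on its minus strand from 68862265 to 68863031.
Ighv11-2: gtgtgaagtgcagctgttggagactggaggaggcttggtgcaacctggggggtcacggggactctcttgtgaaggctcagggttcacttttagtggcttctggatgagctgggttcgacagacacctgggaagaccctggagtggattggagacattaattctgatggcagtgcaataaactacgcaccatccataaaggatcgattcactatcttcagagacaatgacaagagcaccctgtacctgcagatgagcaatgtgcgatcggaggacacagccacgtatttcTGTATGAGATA
Igkv14-126: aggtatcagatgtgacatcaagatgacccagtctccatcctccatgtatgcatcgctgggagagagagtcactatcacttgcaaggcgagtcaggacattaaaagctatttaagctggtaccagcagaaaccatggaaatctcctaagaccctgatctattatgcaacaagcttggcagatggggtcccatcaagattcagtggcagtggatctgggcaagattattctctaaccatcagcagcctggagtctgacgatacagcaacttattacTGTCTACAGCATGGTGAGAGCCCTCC
Ighv5-16: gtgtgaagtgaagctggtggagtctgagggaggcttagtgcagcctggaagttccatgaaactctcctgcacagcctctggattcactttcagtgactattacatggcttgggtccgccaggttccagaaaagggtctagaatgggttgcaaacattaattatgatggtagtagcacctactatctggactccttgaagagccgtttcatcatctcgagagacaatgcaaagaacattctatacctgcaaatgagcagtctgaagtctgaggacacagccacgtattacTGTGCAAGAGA
Igkv1-88: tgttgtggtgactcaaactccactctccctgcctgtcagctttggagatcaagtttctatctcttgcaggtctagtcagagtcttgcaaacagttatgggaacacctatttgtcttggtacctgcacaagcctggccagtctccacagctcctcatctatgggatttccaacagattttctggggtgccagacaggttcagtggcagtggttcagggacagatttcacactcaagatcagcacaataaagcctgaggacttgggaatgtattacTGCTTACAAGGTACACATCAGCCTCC

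Ighv11-2 and Igkv14-126 had nearly the same level in each library. Ighv11-2 had 37.1, 15.1, 98.3, 30.9 and 38.5 CPM in CK2i 1 to 5, and 38.2, 35.1, 41.6, 59.3 and 76.4 CPM in vehicle 1 to 5. Igkv14-126 had 37.5, 18.6, 99.2, 36.6 and 43.1 CPM in CK2i 1 to 5, and 38.1, 36.3, 48.3, 58.9 and 77.4 CPM in vehicle 1 to 5. Both were highest in CK2i 3 and lowest in CK2i 2, and the groups overlapped. The deposited FPKM values, which scale counts by length, ran from 79.5 to 533 for Ighv11-2 and from 98.2 to 537 for Igkv14-126. This heavy and kappa combination is known in mouse from B-1 cells, whose antibodies bind phosphatidylcholine. Neither segment passed the test between the groups: the log2 fold change of CK2i over vehicle was -0.19 ± 0.41 (SE) for Ighv11-2 (adjusted p = 0.773) and -0.14 ± 0.38 for Igkv14-126 (adjusted p = 0.816) by edgeR's quasi-likelihood test, and both turned positive without CK2i 2, without vehicle 5, without CK2i 2 and 5, and with 1 surrogate variable.

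To ask which heavy and light segments vary together, the 17 heavy members with a mean of at least 10 CPM were set against the 13 light members at that level, 221 pairs in all, over the 10 libraries. This comparison and its minimum were chosen after the values had been seen. For Ighv11-2 and Igkv14-126, Pearson's r of log2 CPM was 0.992 and Spearman's rho 0.988. Both had p = 1e-05 by permutation of the libraries, the smallest that 100000 resamples can give, and the Benjamini-Hochberg adjusted values over 221 pairs were 0.00110 and 0.00221. Without the 2 libraries farthest from the median of Ighv11-2, r was 0.973. The ratio of Igkv14-126 to Ighv11-2 CPM stayed between 0.993 and 1.24 in the 10 libraries.

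Ighv5-16 and Igkv1-88 were the other pair past both adjusted tests, with r = 0.951 and rho = 0.988 (permutation test, adjusted p = 0.00110 and 0.00221), and r = 0.958 without the 2 farthest libraries. Ighv5-16 had 15.4, 2.39, 54.3, 10.01 and 2.95 CPM in CK2i 1 to 5, and 19.8, 114, 16.0, 5.20 and 33.9 CPM in vehicle 1 to 5. Igkv1-88 had 21.6, 0.394, 77.3, 19.3 and 1.83 CPM in CK2i 1 to 5, and 21.9, 150.0, 36.1, 3.34 and 45.9 CPM in vehicle 1 to 5. Both peaked in vehicle 2, with CK2i 3 next, and were low in CK2i 2 and 5 and vehicle 4. The ratio of Igkv1-88 to Ighv5-16 ranged from 0.165 to 2.26, wider than for the first pair. For Ighv7-1 and Igkv15-103, r was 0.884 and rho 0.903, and the adjusted permutation p was 0.0427 for r and 0.0692 for rho. Libraries share their depth and TMM scaling across segments, and bulk counts do not tell which chains were made by the same cell.

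**Figure D2:**
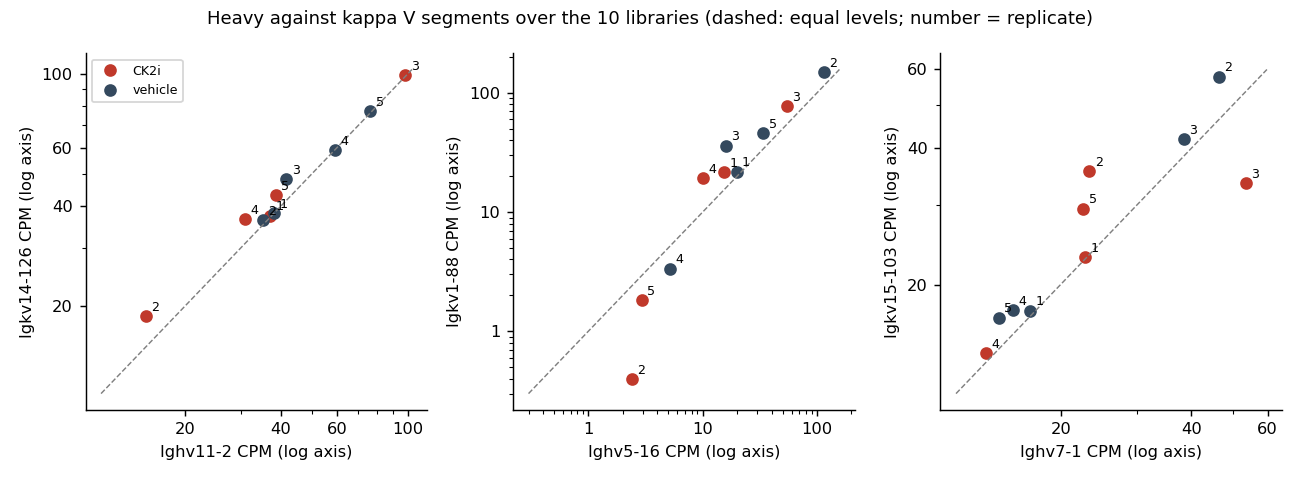
Each panel plots the CPM of a kappa segment against that of a heavy segment on log axes, 1 point per library with its replicate number, CK2i and vehicle in separate colours, and a dashed line of equal levels. Igkv14-126 and Ighv11-2 lie along the line from 15.1 to 99.2 CPM, while Igkv1-88 and Ighv5-16 rise together with a wider spread about it (ratio 0.165 to 2.26). Igkv15-103 and Ighv7-1 had the lowest r of the 3 pairs (0.884), with ratios of 0.627 to 1.53.

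The sum over each locus was lower in 4 of the 5 CK2i libraries than in any vehicle library, and no locus passed the test. Sums take all V segments of the table, members or not, because reads of close copies are shared out by a model and a sum is less open to how they are divided. Ighv summed to 434, 394, 734, 357 and 331 CPM in CK2i 1 to 5, and to 557, 706, 666, 715 and 537 CPM in vehicle 1 to 5. Igkv summed to 386, 354, 644, 298 and 303 CPM in CK2i 1 to 5, and to 499.9, 639.8, 532, 571 and 452 CPM in vehicle 1 to 5. At both loci CK2i 3 stood above all 5 vehicle libraries and the other 4 CK2i libraries below them. Iglv summed to 27.5, 16.4, 50.7, 31.4 and 28.6 CPM in CK2i 1 to 5, and to 31.7, 43.7, 70.7, 41.7 and 33.6 CPM in vehicle 1 to 5. There CK2i 3 lay within the vehicle range and the other 4 lay below it.

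**Figure D3:**
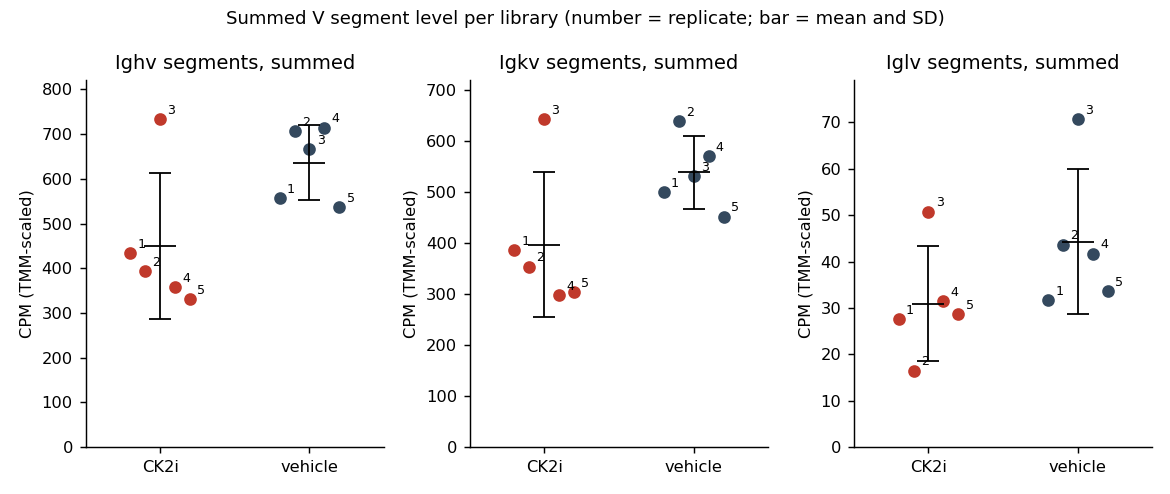
Points give the summed CPM (TMM-scaled) of all V segments of a locus in each library, numbered by replicate, with CK2i left and vehicle right in each panel and bars for the mean and SD (n = 5). In the Ighv and Igkv panels CK2i 3, at 734 and 644 CPM, lies above the vehicle libraries and the other 4 CK2i libraries below them.

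Ighv averaged 449.9 ± 163 CPM in CK2i and 636 ± 83.9 CPM in vehicle (SD, n = 5 each), a log2 fold change of -0.50 ± 0.20 (SE) with an adjusted p of 0.0974 by edgeR's quasi-likelihood test. In the table with summed loci, 7.36% of 14194 entries passed the threshold of 0.05 as lower in CK2i and 6.75% as higher, 14.1% in both directions. Igkv averaged 397 ± 143 CPM in CK2i and 539 ± 71.3 CPM in vehicle, a log2 fold change of -0.44 ± 0.20 (adjusted p = 0.131). Iglv averaged 30.9 ± 12.4 CPM in CK2i and 44.3 ± 15.6 CPM in vehicle, a log2 fold change of -0.52 ± 0.28 (adjusted p = 0.209). Whether the sums passed depended on a single library, CK2i 3, and for Ighv also on the test used. Without CK2i 3 the fold changes were -0.75 (adjusted p = 0.00499) for Ighv, -0.69 (0.00652) for Igkv and -0.77 (0.0478) for Iglv by the same test. Without CK2i 2 and 5 they were -0.32, -0.28 and -0.28 (adjusted p = 0.426, 0.504 and 0.632), and with 1 surrogate variable -0.23, -0.19 and -0.22 (0.728, 0.786 and 0.848). Calls over single genes moved the same way. They numbered 3198 without CK2i 3, 175 without CK2i 2 and 5 and 61 with 1 surrogate variable, against 1892 in the main fit. With DESeq2's Wald test Ighv had an adjusted p of 0.0485.

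Genes of antibody-secreting cells and the constant segments were examined beside the V loci. Of the 16 genes of the plasma cell list, 2 passed the test and were lower in CK2i, Jchain and Cd38, and 0 were higher. Over all 14346 genes tested, 6.76% were lower and 6.43% higher. Cd38, a surface enzyme that other blood cells also carry, is not particular to plasma cells. It had a log2 fold change of -0.58 ± 0.17 (SE, adjusted p = 0.0459). The summed level of the list, in which Jchain was the most abundant gene, was 909 to 1206 CPM in CK2i and 1181 to 1407 CPM in vehicle. The next most abundant genes, Edem1, Txndc5 and Xbp1, had log2 fold changes of 0.015, -0.12 and 0.022 and did not pass. At lower levels, Tnfrsf17, Derl3 and Prdm1 had -0.59, -0.58 and -0.64, and Tnfrsf13b, Sdc1 and Fkbp11 had 0.33, 0.20 and 0.15. None of these passed either. Tnfrsf17 was lower in every CK2i library (0.740 to 1.49 CPM) than in any vehicle library (1.57 to 2.03 CPM, edgeR adjusted p = 0.0661). The median log2 fold change over the list was -0.23. Jchain had 311, 281, 419, 281 and 247 CPM in CK2i 1 to 5, and 542, 614, 671, 641 and 493 CPM in vehicle 1 to 5. The groups did not overlap for Jchain, and the log2 fold change was -0.94 ± 0.14 (SE, adjusted p = 0.00611). Sdc1, the plasma cell surface proteoglycan CD138, averaged 16.99 ± 3.61 CPM in CK2i and 14.8 ± 1.97 CPM in vehicle (adjusted p = 0.329), Xbp1, the transcription factor of the secretory programme, 147 ± 12.8 CPM in CK2i and 145 ± 6.504 CPM in vehicle (adjusted p = 0.812), and Mzb1, a chaperone of antibody assembly, 5.86 ± 2.35 CPM in CK2i and 8.56 ± 0.822 CPM in vehicle (adjusted p = 0.114).

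Of 9 constant segments tested, 1 passed and was lower, beside 6.76% of genes lower and 6.43% higher over all 14346 tested. This was Igha, the constant segment of IgA. It had 1136, 1129, 1188, 1054 and 757 CPM in CK2i 1 to 5, and 1715, 1910, 2075, 2010 and 1343 CPM in vehicle 1 to 5. Here CK2i 3 lay with the other CK2i libraries and below all vehicle libraries, and the log2 fold change was -0.78 ± 0.14 (SE, adjusted p = 0.0130). With 1 surrogate variable the edgeR adjusted p was 0.0590 for Jchain and 0.132 for Igha, in a fit that called 61 of 14346 genes. Ighm, the constant segment of IgM, followed another pattern, with 1169, 713, 3119, 810 and 850 CPM in CK2i 1 to 5, and 1242, 1876, 1374, 1754 and 1355 CPM in vehicle 1 to 5. In Ighm CK2i 3 was the highest of the 10 libraries and the other 4 CK2i libraries the lowest (log2 fold change -0.19 ± 0.37, adjusted p = 0.742). Igkc averaged 385 ± 151 CPM in CK2i and 541 ± 64.6 CPM in vehicle (adjusted p = 0.123), and Iglc2 30.4 ± 13.9 CPM in CK2i and 42.5 ± 5.00 CPM in vehicle (adjusted p = 0.189). The constant segments summed to 2118 to 5206 CPM in CK2i and 3381 to 4607 CPM in vehicle.

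Of the B-lineage lists, 0 of 8 tested pro-B and pre-B genes and 0 of 5 tested mature B genes passed. Over all 14346 genes tested, 6.76% were lower and 6.43% higher. The lists hold 15 and 10 genes, and the rest, such as Pax5 and Ms4a1, were too low to test or had no entry. The pro-B and pre-B list summed to 36.5 to 49.5 CPM in CK2i and 35.4 to 57.0 CPM in vehicle, and Vpreb2, a surrogate light chain, was at 0 in all libraries. Cd79a, a signalling chain of the B cell receptor, averaged 1.83 ± 0.464 CPM in CK2i and 2.72 ± 0.530 CPM in vehicle (adjusted p = 0.0766). Rag1, part of the enzyme that joins V segments, averaged 0.647 ± 0.442 CPM in CK2i and 0.365 ± 0.103 CPM in vehicle (log2 fold change 0.82 ± 0.43, adjusted p = 0.192), and the sign turned without CK2i 2 and 5 (-0.064) and with 1 surrogate variable (-0.41). Dntt, which adds bases at the joins, averaged 17.1 ± 3.64 CPM in CK2i and 21.8 ± 6.17 CPM in vehicle (adjusted p = 0.234). The mature B list summed to 66.9 to 123 CPM in CK2i and 72.2 to 90.2 CPM in vehicle. Most of that sum came from Cd37, Cd74 and H2-Ab1. They averaged 39.8, 28.1 and 12.5 CPM in CK2i and 34.2, 32.0 and 10.9 CPM in vehicle. Of T and NK genes 0 of 3 tested, in a list of 8, passed. The list summed to 40.3 to 77.5 CPM in CK2i and 30.02 to 56.2 CPM in vehicle. Most of that was Nkg7, which averaged 57.8 CPM in CK2i and 40.4 CPM in vehicle. Among 9 progenitor genes 1, Kit, passed and was lower (log2 fold change -0.26, adjusted p = 0.0302), with sums of 1181 to 1259 CPM in CK2i and 1130 to 1360 CPM in vehicle. The part of these cell types in the V segment levels was not tested.

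Kappa V counts followed Igkc closely. The ratio of summed Igkv to Igkc counts was 0.987 to 1.13 in CK2i and 0.982 to 1.02 in vehicle, averaging 1.04 ± 0.0613 in CK2i and 0.995 ± 0.0157 in vehicle (SD, n = 5 each; exact two-sided permutation test, p = 0.127, adjusted p = 0.222 over 4 such values). The heavy to kappa V ratio was 1.09 to 1.199 in CK2i and 1.104 to 1.25 in vehicle, with means of 1.13 ± 0.0405 in CK2i and 1.18 ± 0.0714 in vehicle (exact permutation p = 0.222, adjusted p = 0.222). The 252 splits of 10 libraries allow no p below 0.00794. Evenness of use was measured as the effective number of segments, the inverse Simpson index of their shares of the locus counts. For Igkv it was 21.4, 22.6, 16.4, 24.5 and 21.1 in CK2i 1 to 5, and 18.5, 11.5, 16.5, 18.3 and 17.4 in vehicle 1 to 5. All but CK2i 3 lay above the vehicle range, with means of 21.2 ± 3.00 in CK2i and 16.5 ± 2.91 in vehicle (exact permutation p = 0.0397), which did not hold after adjustment (adjusted p = 0.159). For Ighv it averaged 27.2 ± 4.18 in CK2i and 22.8 ± 5.87 in vehicle (exact permutation p = 0.175, adjusted p = 0.222).

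Summed by family, 1 of 33 families passed the test (3.03%), against 7.19% lower and 6.6% higher, 13.8% in both directions, of the 14224 entries of that table. This was Ighv1, also called J558, which holds 50 segments of the table and 41 of the members. It had 192, 208, 348, 204 and 168 CPM in CK2i 1 to 5, and 323, 359, 401, 439 and 267 CPM in vehicle 1 to 5. CK2i 3 lay within the vehicle range and the other 4 CK2i libraries lay below it. The means were 224 ± 71.0 CPM in CK2i and 358 ± 67.1 CPM in vehicle (SD, n = 5 each), a log2 fold change of -0.68 ± 0.19 (SE) with an adjusted p of 0.0413 by edgeR. The call was lost when any 1 library other than CK2i 3 was left out, with adjusted p-values of 0.0503 (without vehicle 5) to 0.0937 (without CK2i 5). Without CK2i 3 the adjusted p was 0.00568 and 8 families passed, all lower: Ighv1, Ighv5, Igkv1, Igkv4, Igkv6, Igkv9, Igkv10 and Igkv17. Calls also rose over the whole table without CK2i 3. There the single-gene fit called 3198 of 14459 genes, against 1892 of 14346 with all libraries. Without CK2i 2 and 5 and with 1 surrogate variable Ighv1 did not pass (adjusted p = 0.211 and 0.429).

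**Figure D4:**
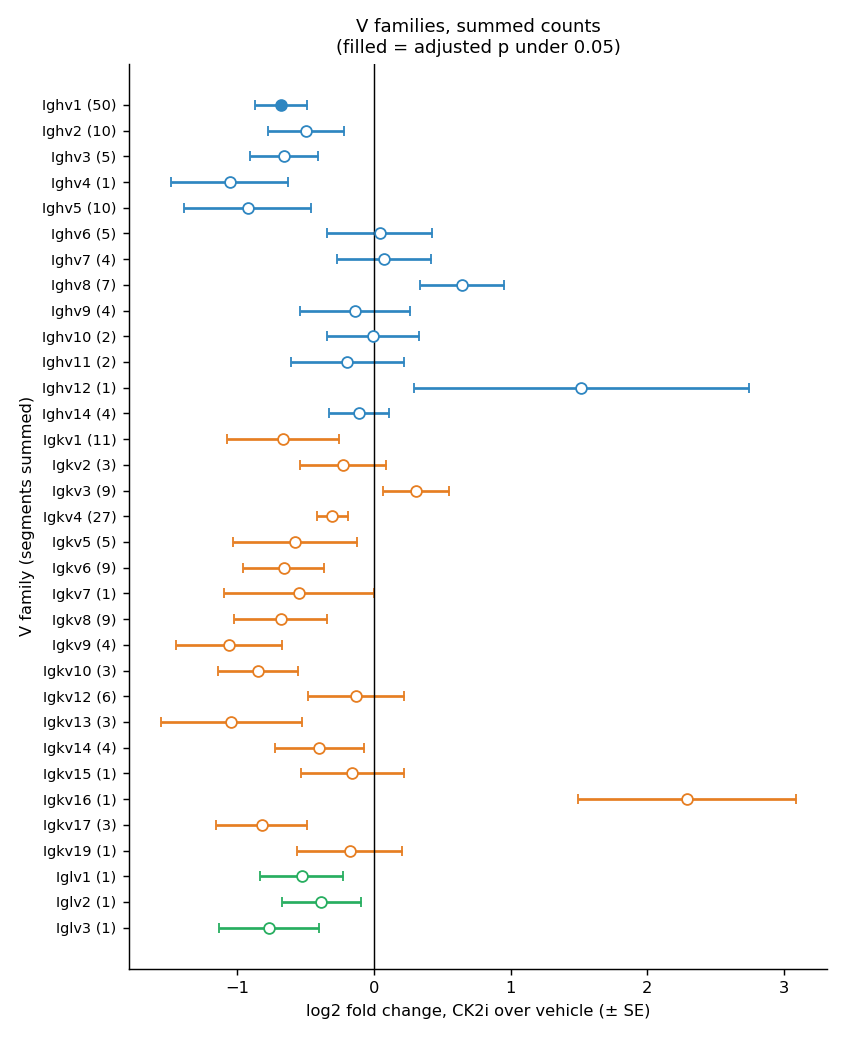
Points give the log2 fold change of CK2i over vehicle with its standard error for the summed counts of each V family, with the number of segments summed in brackets, in separate colours for Ighv, Igkv and Iglv. Of 33 families 27 lie below 0, and Ighv1 is the filled point (adjusted p = 0.0413), while Igkv16 and Ighv12, of 1 segment each, have wide error bars above 0.

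Of the 33 families 27, Ighv1 included, had a fold change below 0 and 6 above 0. Igkv4, with 27 segments of the table, summed to 31.3, 36.6, 48.3, 31.2 and 38.5 CPM in CK2i 1 to 5, and to 42.2, 51.7, 42.9, 45.6 and 46.8 CPM in vehicle 1 to 5 (log2 fold change -0.31 ± 0.11, adjusted p = 0.0856). The vehicle values of Igkv4 lay close together, and 4 CK2i libraries lay below them. Igkv16 has 1 segment, Igkv16-104, with 46.2, 1.53, 43.7, 5.02 and 5.31 CPM in CK2i 1 to 5, and 5.69, 3.62, 2.89, 3.42 and 5.12 CPM in vehicle 1 to 5. It was high in CK2i 1 and 3 only (log2 fold change 2.29 ± 0.80, adjusted p = 0.0724), and passed with DESeq2's Wald test, without CK2i 2 and 5 and with 1 surrogate variable. By the unadjusted edgeR p at a limit of 0.05, 8 of the 33 families were lower and 1 was higher in CK2i. At that limit 2385 of 14346 single genes were lower and 2574 higher.

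Of 155 single segments tested, 12 passed and were lower in CK2i (7.74%) and 0 were higher, against 6.76% lower and 6.43% higher over the 14346 genes tested, 13.2% in both directions. The 12 include Ighv9-1, which the vehicle libraries alone put in the set and which had to differ, and without it 11 of 154 (7.14%) were lower. Ighv9-2, kept among the 11, reached the count minimum in 5 vehicle and 2 CK2i libraries. The share of segments called lower is near that of genes at large. Ighv2-4 was not tested, with counts of 1 to 118. At an unadjusted p under 0.05, 30 segments were lower and 8 higher, and with DESeq2's Wald test 17 were lower and 4 higher. Of the 14346 genes, 2385 were lower and 2574 higher at that unadjusted p, and the Wald test called 3142 of 14912. Fold changes were below 0 for 113 segments and above 0 for 42, with a median log2 of -0.40, against -0.00062 over all genes. The median standard error was 0.50 for the segments and 0.0858 over all genes. The fits without CK2i 1, 2, 3, 4 or 5 called 8, 5, 17, 7 and 1 segments, of which 7, 5, 10, 7 and 1 were among the 12, and those without CK2i 1 and without CK2i 3 each called 1 segment higher. The fits without vehicle 1, 2, 3, 4 or 5 called 5, 8, 6, 5 and 9, of which 4, 7, 6, 5 and 8 were among the 12. Among all genes, the same fits called 1727, 617, 3198, 1738 and 446 genes without CK2i 1 to 5. Without vehicle 1 to 5 they called 458, 1602, 758, 528 and 546 genes, against 1892 with all libraries. Without CK2i 2 and 5 together 1 segment was called, and it was higher, and with 1 surrogate variable 1 was lower and 1 higher. Few genes of any kind passed there, 175 of 14583 without CK2i 2 and 5 and 61 of 14346 with 1 surrogate variable.

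The 12 comprised 5 of 41 Ighv1 members (Ighv1-18, Ighv1-19, Ighv1-34, Ighv1-39 and Ighv1-72), 2 of 4 Ighv9 members (Ighv9-1 and Ighv9-2) and 5 Igkv segments (Igkv4-70, Igkv8-16, Igkv8-30, Igkv12-46 and Igkv17-121). The groups did not overlap for Ighv9-1, Ighv1-18 and Ighv1-72. Without Ighv9-1, for which the choice of members fixed this, that is 2 of 154 segments tested (1.30%), against 5.76% of all genes with CK2i below and 5.18% with CK2i above. Ighv1-18 had 1.53, 1.11, 1.76, 1.51 and 0.944 CPM in CK2i 1 to 5, and 3.63, 9.29, 3.49, 2.39 and 3.12 CPM in vehicle 1 to 5. Its vehicle 2 value was the highest, and the log2 fold change was -1.67 ± 0.36 (SE, adjusted p = 0.0216). Ighv1-72 had 9.92, 5.70, 8.74, 12.5 and 5.04 CPM in CK2i 1 to 5, and 22.5, 13.3, 17.4, 12.8 and 13.2 CPM in vehicle 1 to 5. CK2i 4 came close to vehicle 4, and the log2 fold change was -0.92 ± 0.25 (SE, adjusted p = 0.0401). With each library left out in turn, Ighv1-18 remained called in 8 of 10 fits and Ighv1-72 in 4, with adjusted p-values up to 0.0555 and 0.0900.

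Among the other called Ighv1 segments, Ighv1-39 had the highest level, with 4.68, 28.2, 6.67, 11.2 and 11.3 CPM in CK2i 1 to 5, and 34.1, 67.8, 89.8, 32.9 and 14.1 CPM in vehicle 1 to 5. CK2i 2 lay above vehicle 5, and the other CK2i libraries below all vehicle libraries (log2 fold change -1.94 ± 0.55, adjusted p = 0.0429). Ighv1-19 had 7.13, 5.42, 20.1, 6.90 and 4.34 CPM in CK2i 1 to 5, and 27.6, 31.2, 26.7, 16.4 and 16.9 CPM in vehicle 1 to 5. Again CK2i 3 alone reached the vehicle range (-1.43 ± 0.39, adjusted p = 0.0385). Ighv1-34 averaged 3.92 ± 1.36 CPM in CK2i and 9.76 ± 4.33 CPM in vehicle (-1.31 ± 0.33, adjusted p = 0.0318). Ighv1-34 was called in 5 of 10 leave-one-out fits, Ighv1-39 in 2 and Ighv1-19 in 1, with adjusted p-values up to 0.0753, 0.0955 and 0.0850.

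Of the kappa segments, Igkv8-16 had 0.376, 0.444, 1.49, 0.317 and 0.649 CPM in CK2i 1 to 5, and 3.61, 3.38, 2.49, 1.29 and 2.52 CPM in vehicle 1 to 5. Only CK2i 3 overlapped the vehicle range (log2 fold change -2.01 ± 0.42, adjusted p = 0.0203). Igkv12-46 averaged 2.84 ± 0.803 CPM in CK2i and 6.07 ± 2.17 CPM in vehicle (-1.09 ± 0.26, adjusted p = 0.0296), and Igkv4-70 0.532 ± 0.2999 CPM in CK2i and 1.51 ± 0.737 CPM in vehicle (-1.50 ± 0.42, adjusted p = 0.0420). Igkv17-121 had 1.21, 1.31, 1.49, 1.74 and 0.560 CPM in CK2i 1 to 5, and 9.76, 1.04, 7.33, 5.30 and 2.24 CPM in vehicle 1 to 5. Vehicle 2 lay among the CK2i libraries (-2.02 ± 0.53, adjusted p = 0.0364). Igkv8-30 had 4.54, 7.03, 4.38, 5.07 and 7.46 CPM in CK2i 1 to 5, and 16.7, 26.9, 13.4, 22.7 and 2.70 CPM in vehicle 1 to 5. Vehicle 5 was the lowest of the 10 libraries for Igkv8-30 and the other vehicle libraries the highest (-1.53 ± 0.45, adjusted p = 0.0484). In leave-one-out fits Igkv8-16 was called in 8 of 10, Igkv12-46 in 6, Igkv17-121 in 4, Igkv4-70 in 2 and Igkv8-30 in 1, with adjusted p-values up to 0.0518, 0.0681, 0.0840, 0.0923 and 0.0978.

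**Figure D5:**
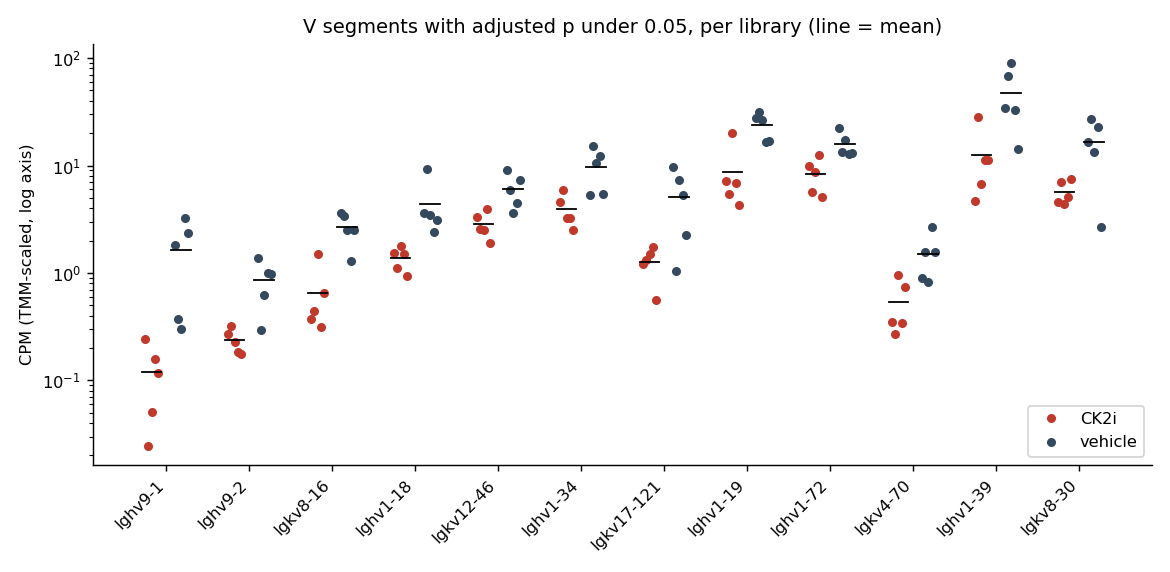
Points give CPM per library on a log axis for the 12 segments with an adjusted p under 0.05, CK2i left of vehicle for each segment, with a line at the group mean. The groups overlap by at least 1 library in all but Ighv9-1, Ighv1-18 and Ighv1-72, and vehicle 5 of Igkv8-30 lies at 2.70 CPM, below its CK2i libraries.

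The called Ighv9 segments are close copies at low level and are shown together for that reason. Ighv9-1 and Ighv9-2 are 95.7% identical over their coding sequence, on the minus strand of chromosome 12 from 114093928 to 114094358 and from 114109001 to 114109430. The lines give their last 300 coding bases (GENCODE M21 on GRCm38, 5′ to 3′), with capitals at the 12 positions where they differ.
Ighv9-1: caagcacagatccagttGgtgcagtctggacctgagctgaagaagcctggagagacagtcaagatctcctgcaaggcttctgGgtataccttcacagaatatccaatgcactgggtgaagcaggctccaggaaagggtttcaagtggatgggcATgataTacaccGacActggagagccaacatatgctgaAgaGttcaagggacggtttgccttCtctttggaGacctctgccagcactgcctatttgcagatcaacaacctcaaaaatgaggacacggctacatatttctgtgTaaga
Ighv9-2: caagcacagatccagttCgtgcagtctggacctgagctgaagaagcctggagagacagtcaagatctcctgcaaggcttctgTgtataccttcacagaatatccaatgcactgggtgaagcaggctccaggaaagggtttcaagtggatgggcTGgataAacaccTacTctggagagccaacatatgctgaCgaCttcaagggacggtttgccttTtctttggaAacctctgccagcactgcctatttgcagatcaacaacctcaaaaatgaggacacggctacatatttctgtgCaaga

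Ighv9-1 had counts of 9, 1, 2, 6 and 4 in CK2i 1 to 5, and of 79, 14, 12, 134 and 91 in vehicle 1 to 5. It entered the set through the vehicle libraries alone and so had to differ between the groups. Its fold change, -3.76 ± 0.77 on the log2 scale (adjusted p = 0.0188), is given as a description only. Ighv9-2 had counts of 10, 13, 9, 7 and 6 in CK2i 1 to 5, and of 60, 11, 25, 41 and 38 in vehicle 1 to 5. All 5 vehicle libraries but only 2 CK2i libraries of Ighv9-2 reached the count minimum. The vehicle libraries alone would have put it in the set, so its call is not independent of the rule. For Ighv9-2, vehicle 2 lay within the CK2i range and the other vehicle libraries above it (log2 fold change -1.85 ± 0.38, adjusted p = 0.0197). With each library left out in turn Ighv9-2 was called in 9 of 10 fits, with an adjusted p up to 0.0521 (without CK2i 5). The family's most abundant member, Ighv9-3, is 94.3% identical to Ighv9-2 and averaged 18.9 ± 9.47 CPM in CK2i and 15.1 ± 5.72 CPM in vehicle (log2 fold change 0.32 ± 0.37, adjusted p = 0.559).

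Close copies were the rule among the members. For 126 of 156 the most similar other member was at least 90% identical over the coding sequence and for 72 at least 95%, with a median of 94.5%, and for 145 it belonged to the same family. Ighv1-62-2 and Ighv1-71, which differ at 1 of 359 coding bases, had identical counts in all 10 libraries. Values of single segments are therefore uncertain where the authors' quantification divided reads between copies.

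Some abundant segments that did not pass the test were high in single libraries. Ighv1-55 had 26.5, 14.4, 33.5, 17.5 and 9.02 CPM in CK2i 1 to 5, and 35.2, 13.1, 20.2, 110.3 and 16.9 CPM in vehicle 1 to 5. Apart from vehicle 4, the groups had largely overlapping ranges (log2 fold change -0.96 ± 0.58, adjusted p = 0.259). Igkv6-23 had 12.1, 32.5, 51.4, 20.6 and 13.2 CPM in CK2i 1 to 5, and 76.9, 71.4, 85.4, 45.2 and 17.6 CPM in vehicle 1 to 5. It was highest in vehicle 1, 2 and 3, while vehicle 4 and 5 lay among the CK2i libraries (-1.19 ± 0.47, adjusted p = 0.101). Ighv1-26 averaged 26.1 ± 11.9 CPM in CK2i and 39.3 ± 13.96 CPM in vehicle (-0.59 ± 0.31, adjusted p = 0.205), and Igkv10-96 15.8 ± 6.52 CPM in CK2i and 27.1 ± 9.93 CPM in vehicle (-0.78 ± 0.31, adjusted p = 0.103). Iglv1, with 76.8% to 89.2% of lambda V counts per library, averaged 25.8 ± 10.5 CPM in CK2i and 37.3 ± 15.2 CPM in vehicle (-0.53 ± 0.31, adjusted p = 0.241).

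Several leading segments of families had fold changes near 0 with wide errors. The log2 fold change was 0.02 ± 0.28 (SE) for Ighv14-3, 0.14 ± 0.50 for Ighv6-3, 0.04 ± 0.42 for Ighv7-1, -0.18 ± 0.41 for Igkv12-44 and -0.16 ± 0.38 for Igkv15-103, and their signs changed with the library left out. Ighv3-6 averaged 7.93 ± 3.15 CPM in CK2i and 15.5 ± 7.26 CPM in vehicle (-0.96 ± 0.37, adjusted p = 0.0927), and Ighv2-2 8.85 ± 5.04 CPM in CK2i and 12.6 ± 5.56 CPM in vehicle (-0.51 ± 0.48, adjusted p = 0.470). Igkv5-43 stood at 80.2 CPM in vehicle 4 and at 4.95 to 19.8 CPM in the other 9 libraries (-1.84 ± 0.70, adjusted p = 0.0927). Among leaders of families with at least 3 members, the 2 with means higher in CK2i by more than 0.5 on the log2 scale were Igkv3-5, at 19.3 CPM in CK2i 2 and between 1.42 and 3.76 CPM elsewhere (1.39 ± 0.67, adjusted p = 0.165), and Igkv4-59 (0.55 ± 0.32, adjusted p = 0.244). Among the members outside the named set, Igkv5-39, singled out after its values were seen, had 4.87, 14.4, 15.5, 6.92 and 6.93 CPM in CK2i 1 to 5, and 2.50, 6.07, 3.46, 5.54 and 5.48 CPM in vehicle 1 to 5. CK2i 1 lay within the vehicle range of Igkv5-39 and the other 4 above it (1.08 ± 0.35, adjusted p = 0.0612).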

How the data were processed

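Per the labels' protocols, total RNA went through a stranded library kit and was read from both ends, 75 bases each, on a NextSeq 500. Per the submitters' processing notes, Bowtie2, RSEM 1.2.31 and DESeq2 were used with the build mm10; the sources used here do not name the annotation or the strand setting. The authors deposited estimated counts (RSEM expected counts, held as whole numbers) and FPKM, which scales them by length and depth. RSEM divides reads that match several genes by a model, so close copies are uncertain one by one. Symbols came from GENCODE M21, which matched 37570 of 38887 identifiers.

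Counts were tested for CK2i over vehicle with edgeR 4.0.16 in R 4.3.3 (quasi-likelihood test, TMM, filterByExpr with a minimum count of 10, group as the term), two-sided, with Benjamini-Hochberg adjustment over 14346 genes and a threshold of 0.05. Standard errors are the absolute fold change over the root of F. Locus and family sums replaced their segments in the same fit. The steps were tested on simulated data. Single values per library (scipy 1.17.1) had exact permutation tests. Libraries of a group differed beyond sampling noise (chi-square per degree of freedom 10.3 to 67.8), so that precision rests on the spread between 5 libraries and, under about 10 counts, on counting error.

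Named segments were those with an adjusted p under 0.05, the 5 with the highest mean CPM per locus and the leader of each family with at least 3 members, beside a list of context genes, of which Iglc1 had no entry used here, Vpreb1 was too low to test and 1 is not reported here. The members, lists and rules were chosen with earlier results of these data known. Alternatives were 2 other scalings, DESeq2 1.42.0, no filter, a replicate block, each library left out, CK2i 2 and 5 left out, 1 surrogate variable (sva 3.50.0) and limma 3.58.1 on log2(FPKM + 1). Germline sequences and identities came from GENCODE M21 coding sequences.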

Additional observations from a re-analysis of the deposited data

Results flagged for a closer look

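A library stood far from the other 4 of its group in 21 of 112 groups of values examined, by Dixon's ratio above 0.71. For independent, normally distributed values such a gap arises in about 1 of 20 groups. The CPM values were not logged, and locus sums share counts with their segments, so that rate is only a rough guide here. CK2i 3 was high for the Ighv sum (734 CPM, others 331 to 434) and the Igkv sum (644 CPM, others 298 to 386), for Ighm (3119 CPM, others 713 to 1169) and Xbp1 (169 CPM, others 137 to 144). CK2i 3 was also high for Igkv8-16 (1.49 CPM), Ighv1-19 (20.1 CPM), Ighv11-2 (98.3 CPM), Ighv5-16 (54.3 CPM), Igkv1-88 (77.3 CPM) and Ighv7-1 (53.4 CPM), and low for the effective number of Ighv segments (20.1, others 28.1 to 31.2). CK2i 2 was high for Ighv1-39 (28.2 CPM, others 4.68 to 11.3) and Igkv3-5 (19.3 CPM, others 1.64 to 3.47), and CK2i 1 for Igkv5-43 (12.7 CPM, others 4.95 to 6.12).

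Vehicle 2 was high for Ighv1-18 (9.29 CPM, others 2.39 to 3.63), Ighv5-16 (114 CPM, others 5.20 to 33.9) and Mzb1 (10.01 CPM, others 7.998 to 8.32), and low for the effective number of Igkv segments (11.5, others 16.5 to 18.5). Vehicle 4 was high for Ighv1-55 (110.3 CPM, others 13.1 to 35.2) and Igkv5-43 (80.2 CPM, others 5.88 to 19.8), and vehicle 5 low for Ighv2-2 (2.96 CPM, others 13.6 to 16.6).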

How the results depend on the processing

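The 3 locus sums and the 4 ratios and effective numbers kept their direction in every alternative run. Of the locus sums, Ighv passed with DESeq2 (log2 -0.50), and leaving out 1 library gave -0.75 to -0.41 for Ighv, -0.69 to -0.35 for Igkv and -0.77 to -0.29 for Iglv, with all 3 past the threshold only without CK2i 3. The 12 called segments became 21 with DESeq2, 1 without CK2i 2 and 5, 2 with 1 surrogate variable and 1 to 17 with 1 library left out. Among all genes, the 1892 called became 3142, 175, 61 and 446 to 3198 in those fits. The 1 called family became 3 with DESeq2 and 0 to 8 with 1 library left out. The cause was not tested.

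With the replicate number as a block, 13 segments were called, 10 of them among the 12 (not Igkv4-70 and Igkv8-30, adjusted p = 0.0757 and 0.118), and 3 families, Ighv1, Igkv6 and Igkv17, and the locus sums were -0.56, -0.50 and -0.54 (adjusted p = 0.0564, 0.0833 and 0.0701). Among all genes, the block fit called 1139 of 14346. Same-numbered libraries correlated at 0.23, 0.11, 0.07, 0.03 and -0.16 in their deviations from the group means, and the labels do not say what a number shares, so that no pairing was assumed. For 2 of the 5 numbers the best correlated library was the one of the same number.

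Signs turned for 7 V segments, Ighm, Xbp1 and Rag1, none of them called. Without CK2i 2 and 5 the log2 fold change was 0.15 for Ighv11-2, 0.16 for Igkv14-126, 0.13 for Igkv12-44, -0.035 for Ighv14-3, -0.17 for Ighv6-3, 0.16 for Ighm and -0.064 for Rag1. With 1 surrogate variable it was 0.44 for Ighv11-2, 0.42 for Igkv14-126, 0.27 for Igkv12-44, -0.093 for Ighv6-3, 0.31 for Ighm and -0.41 for Rag1. Ighv6-3 was at -0.059 with the block and -0.11 on FPKM. With 1 library left out, ranges were -0.72 to 0.033 for Ighv11-2, -0.61 to 0.063 for Igkv14-126, -0.14 to 0.18 for Ighv14-3, -0.27 to 0.42 for Ighv6-3, -0.36 to 0.35 for Ighv7-1, -0.42 to 0.018 for Igkv12-44, -0.31 to 0.21 for Igkv15-103 and -0.034 to 0.047 for Xbp1. Of 612 values for named V segments under an alternative, 490 kept direction and side of the threshold. Segments under about 1 CPM rest on few counts, and counting error adds to their spread.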
